A study of Mus musculus with 6 samples.

Results

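The genes described here are the HSP70 and HSP110 chaperones that work with DnaJ proteins outside the endoplasmic reticulum. They were taken by name from a fixed list (Hspa1a, Hspa1b, Hspa2, Hspa8, Hspa9, Hspa12a, Hspa4, Hspa4l and Hsph1), and all 9 were found among the 55335 genes of the count files. Bulk RNA sequencing measured transcripts in C57 mouse substantia nigra, a part of the midbrain rich in dopaminergic neurons. The 3 control libraries carry the genotype label WT, and the other 3 are labelled shDNAJB1, a name for knockdown of the co-chaperone gene Dnajb1 by a small hairpin. The labels give no age, no sex, no route of delivery and no control hairpin, and they do not tie each library to its own animal. The p-values therefore reflect spread among these samples alone, and that spread may be technical.

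HSP70 proteins bind exposed stretches of unfolded clients and release them in a cycle driven by ATP. A DnaJ protein such as Dnajb1 hands over the client and speeds ATP hydrolysis, and an HSP110 protein then exchanges the nucleotide so that the client can leave. Together the 3 kinds of protein can take apart protein aggregates, among them fibrils of alpha-synuclein in the test tube. Hspa8 is the constitutive cytosolic HSP70, which also uncoats clathrin vesicles at synapses. Hspa1a and Hspa1b are the stress-induced HSP70 genes, Hspa2 is a related gene known from male germ cells, Hspa9 codes for the mitochondrial HSP70 (mortalin), and Hspa12a is a distant relative found in brain. Hspa4, Hspa4l and Hsph1 code for the HSP110 proteins.

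Promoters of 4 members are printed because the windows of Hspa1a, Hspa1b and Hsph1 hold the letters of a heat shock element. The Hspa4l window lacks these letters, the inverted repeat of GAA to which heat shock factors bind. The windows hold 250 bases before and 50 after the annotated start, from RefSeq on GRCm38.p6, and capitals mark matches to GAANNTTC or TTCNNGAA, each of which reads the same on both strands. Windows of 7 of the 9 members were searched. Those of Hspa8 and Hspa9 were left out of the search, so whether they hold these letters was not tested.
Hspa1a, chr17:34972107-34972406, minus strand: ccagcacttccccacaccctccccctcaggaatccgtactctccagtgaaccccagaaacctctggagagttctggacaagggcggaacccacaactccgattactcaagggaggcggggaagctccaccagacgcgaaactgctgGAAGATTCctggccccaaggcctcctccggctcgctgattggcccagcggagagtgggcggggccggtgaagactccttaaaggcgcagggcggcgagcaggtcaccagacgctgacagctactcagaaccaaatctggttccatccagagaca
Hspa1b, chr17:34959189-34959488, minus strand: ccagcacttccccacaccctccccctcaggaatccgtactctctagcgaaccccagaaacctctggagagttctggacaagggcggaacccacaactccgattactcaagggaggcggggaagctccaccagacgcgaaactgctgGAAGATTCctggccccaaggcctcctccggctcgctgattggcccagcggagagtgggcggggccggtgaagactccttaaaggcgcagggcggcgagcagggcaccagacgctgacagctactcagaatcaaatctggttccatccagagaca
Hsph1, chr5:149636266-149636565, minus strand: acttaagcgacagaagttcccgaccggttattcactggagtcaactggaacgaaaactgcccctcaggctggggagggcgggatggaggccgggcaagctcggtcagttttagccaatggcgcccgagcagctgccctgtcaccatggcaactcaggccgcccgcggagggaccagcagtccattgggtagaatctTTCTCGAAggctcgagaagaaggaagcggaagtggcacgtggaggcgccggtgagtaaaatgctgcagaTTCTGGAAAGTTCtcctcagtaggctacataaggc
Hspa4l, chr3:40745363-40745662, plus strand: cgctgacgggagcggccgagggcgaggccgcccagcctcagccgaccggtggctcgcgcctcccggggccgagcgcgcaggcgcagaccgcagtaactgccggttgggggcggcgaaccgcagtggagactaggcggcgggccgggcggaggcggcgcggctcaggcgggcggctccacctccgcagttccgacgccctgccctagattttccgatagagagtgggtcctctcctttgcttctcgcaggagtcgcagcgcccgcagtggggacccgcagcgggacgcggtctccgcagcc

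The Hspa1a and Hspa1b windows differed at 4 of 300 positions, and each held GAANNTTC starting 104 bases before the start. The Hsph1 window held TTCNNGAA 54 bases before the start, and after the start it held a longer run in which TTCNNGAA and GAANNTTC share their GAA. A second annotated Hsph1 start nearby has the same elements in its window. The Hspa4l window held neither, and the same was true of the windows of Hspa2, Hspa4 and Hspa12a. For Hspa4l the window begins at 40745363, inside the gene, whose own annotated start is at 40744495. Bases before that earlier start were not searched. Among all 32851 promoter windows of this length, 15.1% held at least 1 of the short motifs and 0.603% held the longer run, with both strands searched. A match describes letters only.

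The family is not one set of similar sequences. Over coding sequence, Hspa1a and Hspa1b shared 1915 of 1923 aligned bases, while Hspa1a and Hspa8 were identical at 74.4% of the longer sequence. The 3 HSP110 genes shared 64.1% to 68.4% with each other and 45.1% to 48.7% with the cytosolic HSP70 genes. Of the 100-base windows of the Hspa1a transcript, 47.1% occur letter for letter in Hspa1b, so how the counts divide between these genes is uncertain, and their sum is given as well. Exons of Hspa1a also overlap those of Gm20481 on the opposite strand by 564 bases, but Gm20481 had 0 counts in every library. Exons of Hspa12a overlap Eno4 on the opposite strand by 166 bases, and Eno4 had 45 to 128 counts per library against 4070 to 9088 for Hspa12a.

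Library totals were 24541386 to 38468363 counts. The target of the hairpin was not detectably lower: Dnajb1 was at 59.8, 47.2 and 51.9 CPM (counts scaled to a common library size by TMM) in control 1, 2 and 3, and at 44.3, 52.4 and 52.5 CPM in shDNAJB1 1, 2 and 3. Its log2 fold change was -0.09 (SE 0.13, interval -0.39 to 0.21), with edgeR adjusted p = 0.909, and without control 1 it was 0.011. Every direction below therefore refers to the libraries labelled shDNAJB1 and not to a measured loss of Dnajb1. Relative to its main partner, Dnajb1 had 3.21 to 3.42 counts per 100 Hspa8 counts in controls and 2.75 to 3.94 in the libraries labelled shDNAJB1, so the control range lay inside the other.

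Hspa8 dominated the family in this tissue. On a per-length scale, in CPM per kb of exon, it stood at 351 ± 37.6 (SD over 6 libraries) and made up 60.8% to 66.0% of the summed level of the 9 genes in each library. Hspa9 followed at 59.4 ± 6.0 CPM per kb and Hspa4 at 47.2 ± 3.53 CPM per kb. These first 3 ranks had ranges over the libraries that did not overlap.

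Next on the per-length scale came Hsph1 at 33.9 ± 2.47, Hspa4l at 30.4 ± 5.35 and Hspa12a at 23.2 ± 3.43 CPM per kb. The ranges of Hsph1 and Hspa4l overlapped, and so did those of Hspa4l and Hspa12a, although Hspa4l was above Hspa12a in 6 of 6 libraries. The lowest were Hspa2 at 10.7 ± 1.99 and the stress-induced Hspa1a at 2.79 ± 0.501 and Hspa1b at 1.84 ± 0.357 CPM per kb. The Hspa1a and Hspa1b ranges overlapped, with Hspa1a above Hspa1b in 6 of 6 libraries. With the length of the main coding transcript in place of all annotated exons, Hsph1 moved above Hspa4 and the other ranks kept their place.

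**Figure D1:**
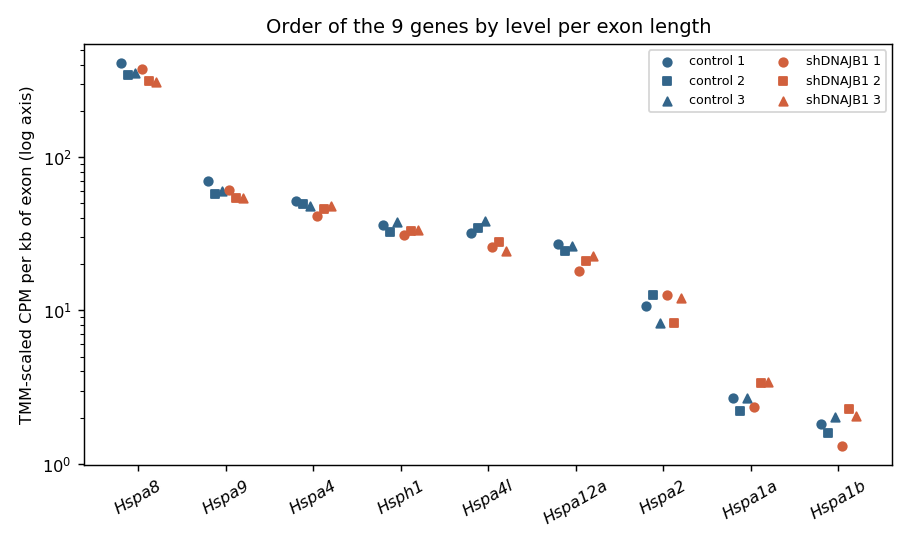
Level of each of the 9 genes in TMM-scaled CPM per kb of exon (log axis) in 6 libraries; blue points are control and orange points shDNAJB1. Hspa8 lies above every other gene in every library, and Hspa1a and Hspa1b lie lowest, between 1.3 and 3.42 CPM per kb.

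The comparison of the groups asked which of these partners differ in the libraries labelled shDNAJB1. By edgeR's quasi-likelihood test, 0 of the 9 members passed an adjusted p of 0.05 over the 18870 genes tested, as did 0% of all genes. At an unadjusted p under 0.05 there were 2 members, Hspa4l and Hspa12a, both lower, against 6.37% of all genes (3.33% lower and 3.04% higher). The groups did not overlap for 3 members, Hspa4l, Hspa12a and Hspa4, again all lower, against 14.0% of all genes in either direction and 7.06% lower (6.98% higher). Of the 9 members 6 had lower and 3 had higher values, with a median log2 difference of -0.14, where the median over all tested genes was 0.01. DESeq2's Wald test called 0 members and 50 genes (0.265%), and limma-voom called 0 members and 0 genes. In bulk tissue, fewer cells of a type and less RNA per cell cannot be told apart.

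**Figure D2:**
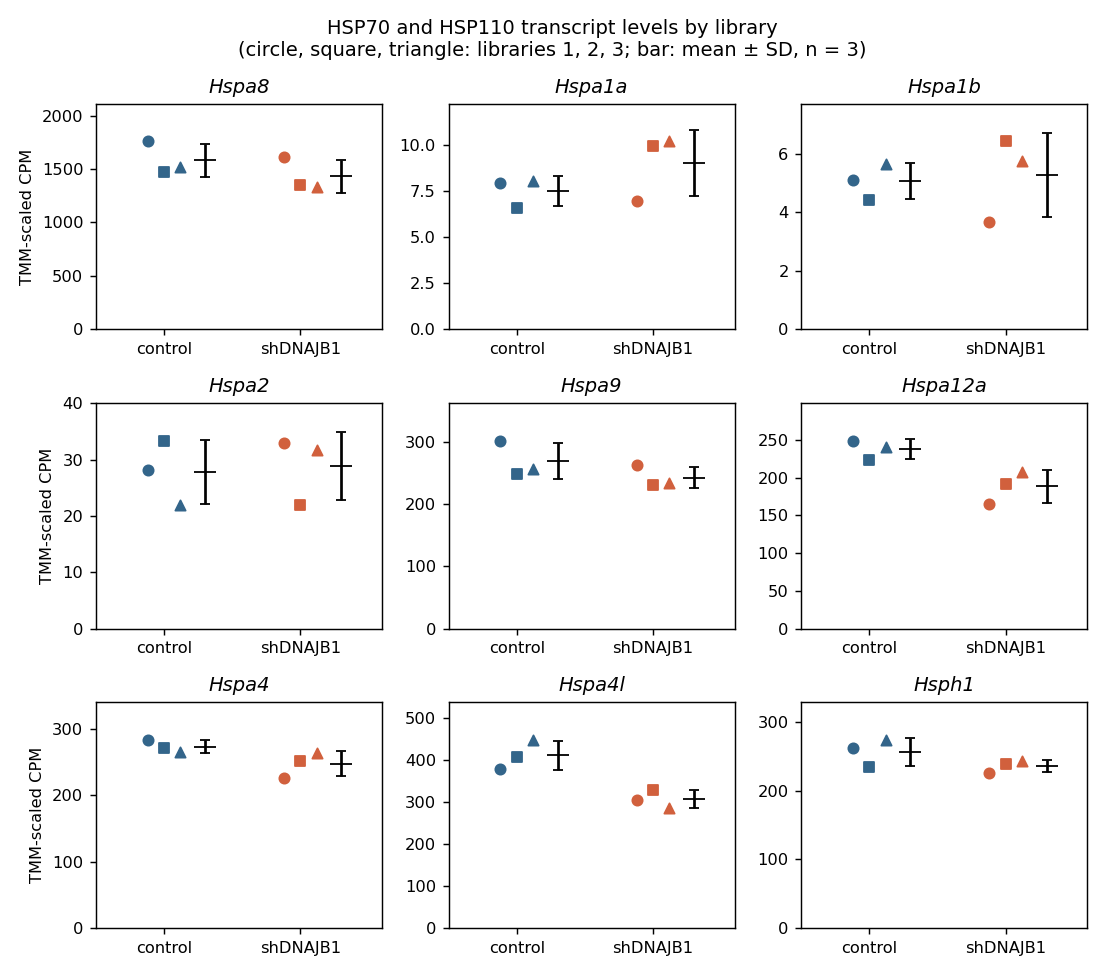
TMM-scaled CPM of each gene in the 3 control (blue) and 3 shDNAJB1 (orange) libraries, with the mean and SD of each group (n = 3) beside the points; each axis starts at 0. Hspa4l, Hspa12a and Hspa4 have every shDNAJB1 point below every control point.

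Among the HSP110 exchange factors, Hspa4l had the smallest unadjusted p of the family. Hspa4l (ENSMUSG00000025757; mm10 chromosome 3, positions 40744495 to 40796103, plus strand) was at 379, 408 and 448 CPM in control 1, 2 and 3. It was at 305, 328 and 286 CPM in shDNAJB1 1, 2 and 3. All 3 libraries labelled shDNAJB1 were below all 3 controls. The level was 412 ± 34.5 CPM (SD, n = 3) in controls and 306 ± 20.7 CPM (SD, n = 3) in the others, a log2 fold change of -0.43 (SE 0.12). The 95% interval, -0.71 to -0.15, corresponds to 61.3% to 90.3% of control, with an edgeR unadjusted p = 0.00795 and adjusted p = 0.765. The two-sided exact permutation test gave p = 0.1, the smallest value that 3 against 3 can give. Of all tested genes, 0.927% had a smaller unadjusted p.

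Hspa4 (ENSMUSG00000020361; chromosome 11, 53259814 to 53300457, minus strand) was at 284, 272 and 265 CPM in the controls. In shDNAJB1 1, 2 and 3 it was at 227, 252 and 264 CPM. The groups were separate only narrowly, shDNAJB1 3 lying just under control 3. The log2 fold change was -0.14 (SE 0.11), with an interval of -0.40 to 0.11 and an edgeR adjusted p = 0.821. With no filter beyond 1 count, or without shDNAJB1 2, the groups of Hspa4 overlapped.

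Hsph1 (ENSMUSG00000029657; chromosome 5, 149614287 to 149636376, minus strand) was the steadiest of the family. It was at 262, 234 and 274 CPM in controls and at 226, 239 and 243 CPM in shDNAJB1 1, 2 and 3, so the groups overlapped. The log2 fold change was -0.12 (SE 0.11) with an edgeR adjusted p = 0.846. The SD of its log2 CPM over the 6 libraries was 0.10, and only 7.58% of tested genes had a smaller one.

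Ratios within a library do not depend on how libraries are scaled, and they set the HSP110 transcripts against each other. There were 1.45, 1.74 and 1.63 Hspa4l counts per Hsph1 count in the controls, against 1.35, 1.37 and 1.18 in the libraries labelled shDNAJB1, with no overlap. The Hspa4l to Hspa4 ratio was 1.33, 1.5 and 1.69 in controls and 1.34, 1.30 and 1.09 in the others, which overlapped. The Hspa4 to Hsph1 ratio was 1.07 ± 0.0962 (SD, n = 3) and 1.05 ± 0.0407 (SD, n = 3). The summed HSP110 level was 0.282 to 0.338 of the summed cytosolic HSP70 level, both in CPM per kb, in controls and 0.251 to 0.324 in the libraries labelled shDNAJB1, with overlap.

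Oligodendrocyte markers ran in the same direction as Hspa4l. On that list 12 of 12 markers were on the lower side (median log2 difference -0.52), and 0 passed over all genes. Their summed level was 15347 to 16516 CPM in controls and 8911 to 16133 CPM in the others, and no marker was at 0. The Pearson correlation of Hspa4l with the list mean was 0.80 over the 6 libraries, with both values taken from the same libraries. In shDNAJB1 1 the summed level, 16133 CPM, was inside the control range, while Hspa4l, at 305 CPM, was below every control. In that library Mbp and Mobp, which code for myelin proteins, were above every control at 7210.4 and 2980.4 CPM. Mog and Cldn11 were inside the control range at 122 and 292 CPM, and the other 8 of the 12 markers were below every control. The part of these markers in the Hspa4l difference was not tested.

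The 5 genes whose log2 CPM over the 6 libraries was most like that of Hspa4l, among 10066 named genes of at least 10 CPM, were Pacs2, Parg, D16Ertd472e, Tbc1d14 and Adamts4, with Pearson correlations of 0.989 to 0.975. With only 6 points, 111 genes exceeded 0.9. Pacs2, a sorting protein of membrane traffic, was at 279.6, 291 and 304 CPM in control 1, 2 and 3 and at 228, 236 and 209 CPM in shDNAJB1 1, 2 and 3.

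Of the HSP70 side, the distant relative Hspa12a was the other member under an unadjusted p of 0.05. Hspa12a (ENSMUSG00000025092; chromosome 19, 58795750 to 58943654, minus strand) was at 249, 223 and 241 CPM in the controls. It was at 165, 192 and 208 CPM in shDNAJB1 1, 2 and 3, all below the lowest control. Controls averaged 238 ± 13.5 CPM and the others 188 ± 21.5 CPM (SD, n = 3 each), for a log2 fold change of -0.34 (SE 0.12). This is 79.2% of control with an interval of 64.9% to 96.6%, and edgeR gave an unadjusted p = 0.0269 and an adjusted p = 0.765.

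Between the groups, neuron markers ran in the same direction as Hspa12a. Of the general neuron markers 9 of 10 were on the lower side (median log2 difference -0.14), and 0 passed. Their summed level was 7422 to 8905 CPM in controls and 6237 to 7077 CPM in the libraries labelled shDNAJB1, without overlap and with no marker at 0. Among the controls the sums had the same order as Hspa12a. Inside the other group, shDNAJB1 1 had the lowest Hspa12a, 165 CPM, but the highest neuron sum, 7077 CPM. shDNAJB1 2 and 3 had Hspa12a at 192 and 208 CPM with sums of 6237 and 6426 CPM. The Pearson correlation of Hspa12a with the list mean was 0.77 over the 6 libraries, and with the mean of the endothelial markers it was -0.79. The part of these markers in the Hspa12a difference was not tested.

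The constitutive Hspa8 did not separate the groups. Hspa8 (ENSMUSG00000015656; chromosome 9, 40800984 to 40810087, plus strand) was at 1759.8, 1471 and 1519 CPM in the controls. In shDNAJB1 1, 2 and 3 it was at 1613, 1353 and 1333 CPM. Control 1 was the highest library and shDNAJB1 1 came next, above both other controls. The log2 fold change was -0.14 (SE 0.15), with an interval of -0.48 to 0.20, or 71.5% to 115% of control, and an edgeR adjusted p = 0.856. Counting error was at most 0.515% per library, so depth did not limit this value.

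Hspa9 (ENSMUSG00000024359; chromosome 18, 34937414 to 34954357, minus strand), the mitochondrial member, followed nearly the same order of libraries, with only the lowest pair exchanged. It was at 302, 249 and 257 CPM in controls and at 262, 231 and 234 CPM in the others. The groups overlapped through shDNAJB1 1, and the log2 fold change was -0.15 (SE 0.12) with an edgeR adjusted p = 0.827. The log2 levels of Hspa8 and Hspa9 had a Pearson correlation of 0.97 over the 6 libraries, the highest of the 36 pairs of members. The pairs as a whole ran from -0.73, for Hspa1b with Hspa2, to that value, and 24 of 36 were above 0.

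Several marker lists ran with Hspa8 and Hspa9 over the 6 libraries. Hspa8 had Pearson correlations of 0.82 with thalamus, 0.82 with GABAergic, 0.81 with neuron and 0.77 with oligodendrocyte list means. Hspa9 had correlations of 0.91 with thalamus, 0.89 with neuron, 0.72 with GABAergic and 0.71 with oligodendrocyte list means. Control 1, where both genes were highest, also had the highest summed thalamus markers, 738 CPM against 249.8 to 644 CPM in the other libraries. Slc17a6 made up much of that sum, at 320.3 CPM in control 1 and 549 CPM in shDNAJB1 3, its highest library. Every other marker on the thalamus list was highest in control 1. Without control 1 the log2 fold changes of Hspa8 and Hspa9 were both -0.055. The part of these markers in either gene's values was not tested.

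The stress-induced pair did not separate the groups. Hspa1a (ENSMUSG00000091971; chromosome 17, 34969190 to 34972156, minus strand) was at 7.93, 6.58 and 8.02 CPM in the controls (289, 190 and 241 counts). It was at 6.98, 9.94 and 10.2 CPM in shDNAJB1 1, 2 and 3 (172, 277 and 396 counts). shDNAJB1 2 and 3 were above every control, and shDNAJB1 1 was inside the control range. The log2 fold change was 0.27 (SE 0.20) with an interval of -0.20 to 0.73, or 87.0% to 166% of control, and an edgeR adjusted p = 0.820.

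Hspa1b (ENSMUSG00000090877; chromosome 17, 34956436 to 34959238, minus strand) was at 5.10, 4.43 and 5.66 CPM in controls and at 3.65, 6.42 and 5.74 CPM in shDNAJB1 1, 2 and 3. shDNAJB1 1 was the lowest of all 6 libraries and shDNAJB1 2 the highest. The log2 fold change was 0.06 (SE 0.25) with an edgeR adjusted p = 0.978, and counting error was largest in shDNAJB1 1. There were 0.644, 0.674 and 0.705 Hspa1b counts per Hspa1a count in the controls and 0.523, 0.646 and 0.566 in the others, with overlap. Counting error per library was 5.03% to 7.62% for Hspa1a and 6.68% to 10.5% for Hspa1b. Whether the division between the copies varied beyond that error was not tested.

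With their counts summed to 1 gene, Hspa1a and Hspa1b had a log2 fold change of 0.186 (SE 0.198) and an edgeR adjusted p = 0.859. Relative to Hspa8, there were 7.41, 7.49 and 9.0 counts of the pair per 1000 Hspa8 counts in controls and 6.59, 12.1 and 11.9 in shDNAJB1 1, 2 and 3. The highest and the lowest of these 6 ratios thus both belonged to the group labelled shDNAJB1.

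Microglia markers ran opposite to the stress-induced pair over the libraries. The summed level of their 9 markers was 361, 545 and 282 CPM in control 1, 2 and 3 and 601, 229 and 188 CPM in shDNAJB1 1, 2 and 3. The summed Hspa1a and Hspa1b level was 13.0, 11 and 13.7 CPM in the controls and 10.6, 16.4 and 15.9 CPM in the others. The pair was lowest in the library with the most microglial transcript and high in those with the least, with a Pearson correlation of -0.97 and a Spearman correlation of -0.94 over the 6 libraries. This was picked after its value was seen from 80 pairings of genes with marker lists. The marker correlations given above for Hspa4l, Hspa12a, Hspa8 and Hspa9 come from the same 80 pairings. Others there were 0.86 for Hspa2 with astrocyte markers and -0.86 for Hspa4 with endothelial markers. In the libraries labelled shDNAJB1, 8 of 9 microglia markers were lower (median log2 difference -0.25, 0 passed, none at 0). The part of these markers in the values of the pair was not tested. Without shDNAJB1 1, Hspa1a and Hspa1b had separate groups, both higher, as did Hspa8, Hspa9, Hspa12a, Hspa4 and Hspa4l on the lower side, making 7 members where 35.0% of all genes were separate. The unadjusted edgeR p of Hspa1a was then 0.0468 (12.9% of all genes were under 0.05) and its adjusted p = 0.382.

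The 5 genes most like the summed pair, among 10067, were Tent5a, Myo5b, Pnck, Plppr5 and Zfp811, with Pearson correlations of 0.984 to 0.974, and 123 genes exceeded 0.9. None of them is on the list of other heat shock factor targets, but that list holds only 13 genes, so no conclusion follows. Pnck, a calmodulin-dependent kinase gene, was at 68.2, 46.7 and 63.8 CPM in control 1, 2 and 3 and at 44.2, 82.1 and 87.7 CPM in shDNAJB1 1, 2 and 3.

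Hspa2 (ENSMUSG00000059970; chromosome 12, 76404176 to 76406938, plus strand) varied inside each group. It was at 28.2, 33.4 and 22 CPM in controls and at 33.0, 22 and 31.7 CPM in shDNAJB1 1, 2 and 3. Each group held low and high libraries, the log2 fold change was 0.06 (SE 0.20), and edgeR gave an adjusted p = 0.971. The SD of its log2 CPM over the 6 libraries was 0.28, where the median gene had 0.23.

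**Figure D3:**
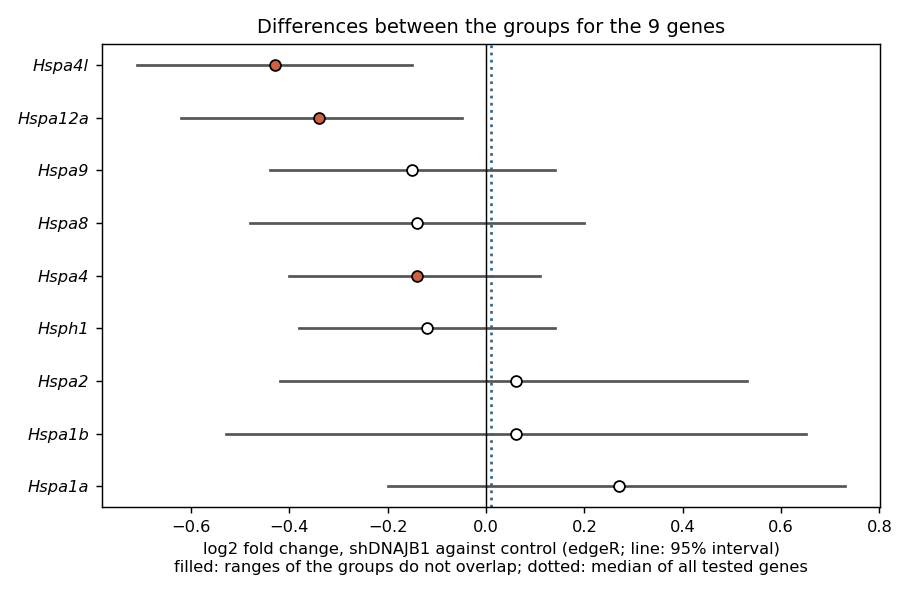
Log2 fold change of each gene (points) with its 95% interval (lines) from edgeR; filled points are genes whose groups do not overlap and the dotted line is the median of all tested genes. The intervals of Hspa4l (-0.71 to -0.15) and Hspa12a (-0.62 to -0.05) lie below 0, and neither gene passed after adjustment.

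**Figure D4:**
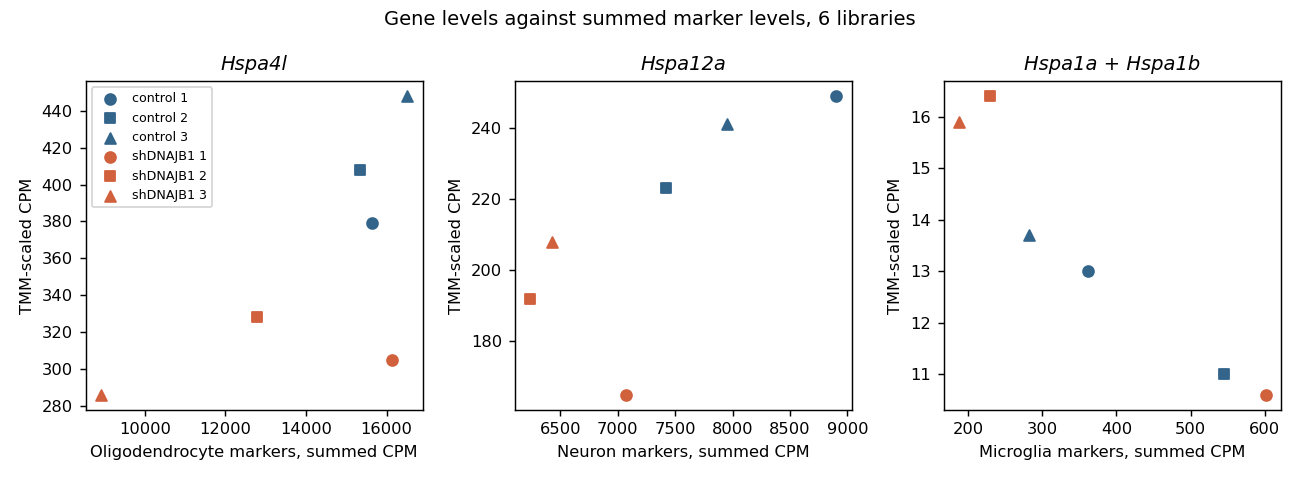
Each panel plots a gene's TMM-scaled CPM (vertical) against the summed CPM of a marker list (horizontal) in 6 libraries; blue points are control and orange points shDNAJB1. Hspa4l is below every control in each shDNAJB1 library (286 to 328 CPM), Hspa12a likewise (165 to 208 CPM), and the Hspa1a and Hspa1b sum is lowest (10.6 CPM) where the microglia sum is highest (601 CPM).

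Of the genes that work with these chaperones, edgeR called 0 in each list, and up to 3 with the smallest unadjusted p are given per list as control and shDNAJB1 means ± SD (n = 3 each). Among the cytosolic DnaJ class A and B partners, which feed clients to Hspa8 and Hspa1a, 6 of 8 were lower (median log2 difference -0.06). Dnajb5 stood on the higher side at 35.2 ± 3.01 and 43.9 ± 4.45 CPM with separate groups (edgeR unadjusted p = 0.033, adjusted p = 0.765). Dnajb2, a neuronal DnaJ protein, was at 124 ± 7.76 and 111 ± 6.68 CPM. The clathrin uncoating and synaptic partners had 3 of 4 lower (median -0.09). Gak, a cofactor of Hspa8 in uncoating, was at 89.5 ± 0.949 and 82.9 ± 3.67 CPM with separate groups, and Dnajc5, the synaptic vesicle protein CSP alpha, was at 409 ± 21.8 and 362 ± 42.4 CPM with overlap.

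The mitochondrial partners of Hspa9 had 6 of 10 higher (median 0.05). Timm44, which tethers Hspa9 to the import channel, was at 41.2 ± 4.88 and 50.6 ± 2.7 CPM with separate groups (edgeR unadjusted p = 0.0409, adjusted p = 0.765). Dnajc15, a DnaJ protein of the inner membrane, was at 98.1 ± 10.4 and 79.9 ± 7.19 CPM with overlap (edgeR unadjusted p = 0.0448, adjusted p = 0.765). The partners of the mitochondrial chaperone thus did not share a direction. Nucleotide exchange factors other than HSP110 were lower in 4 of 7 (median -0.05), and Bag3, a stress-induced one, was at 14.1 ± 1.33 and 17.6 ± 7.83 CPM. Adaptors and the ubiquitin ligase were lower in 4 of 5 (median -0.09). Ttc4, the 1 on the higher side, had the smallest unadjusted p of that list (0.105 by edgeR, adjusted p = 0.775) at 40.7 ± 4.56 and 47.3 ± 1.75 CPM with separate groups. Stip1, which links HSP70 to HSP90, was at 217 ± 23.6 and 190.1 ± 16.9 CPM with overlap.

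Heat shock factors, a family that includes the stress-activated Hsf1, had 3 of 4 higher (median 0.14). Hsf5, on the lower side, was at 0.874 ± 0.167 and 0.489 ± 0.282 CPM with overlap. Hsf2 was at 29.5 ± 2.73 and 34.6 ± 1.08 CPM with separate groups (edgeR adjusted p = 0.77). Hsf1, the main stress-activated factor, was at 24.2 ± 2.57 and 29.6 ± 3.33 CPM with overlap (edgeR adjusted p = 0.765). Their other target genes were lower in 8 of 13 (median -0.10) and did not share a direction. Cryab, a small heat shock protein abundant in oligodendrocytes, was at 130.5 ± 7.87 and 103 ± 16.3 CPM (edgeR unadjusted p = 0.0392, adjusted p = 0.765). Its groups were separate on the lower side, as were those of Hsp90aa1 at 1239 ± 140.2 and 1069 ± 25.4 CPM. Hspb1, another small heat shock protein, was at 4.8 ± 0.637 and 6.17 ± 0.29 CPM, with separate groups on the higher side. The other HSP70 superfamily genes were higher in 4 of 6 (median 0.05), with Hspa1l, a relative of Hspa1a known from testis, at 5.24 ± 0.501 and 6.6 ± 0.975 CPM.

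The remaining marker lists had 0 genes passing. Their median log2 differences were -0.07 for dopaminergic, -0.20 for GABAergic, -0.17 for astrocyte, 0.17 for endothelial and -0.93 for thalamus markers. Dopaminergic markers, which define the labelled tissue, summed to 1289 to 3235 CPM in controls and 941 to 2447 CPM in the others, and none was at 0 in any library.

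Leaving out 1 library at a time kept Hspa4l between -0.476 and -0.356 on the log2 scale and Hspa12a between -0.413 and -0.253. The unadjusted p of Hspa12a was above 0.05 without control 1 (0.0626), control 3 (0.0854), shDNAJB1 1 (0.0546) or shDNAJB1 2 (0.0797) in edgeR. That of Hspa4l stayed below 0.05 in all 15 alternatives, though summing Hspa1a with Hspa1b left its values at those of the main fit. Hspa4, Hspa8, Hspa9 and Hsph1 also stayed negative, with Hspa8 and Hspa9 nearest to 0 without control 1. Hspa1a stayed positive, from 0.172 to 0.417, while Hspa1b and Hspa2 changed sign.

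**Figure D5:**
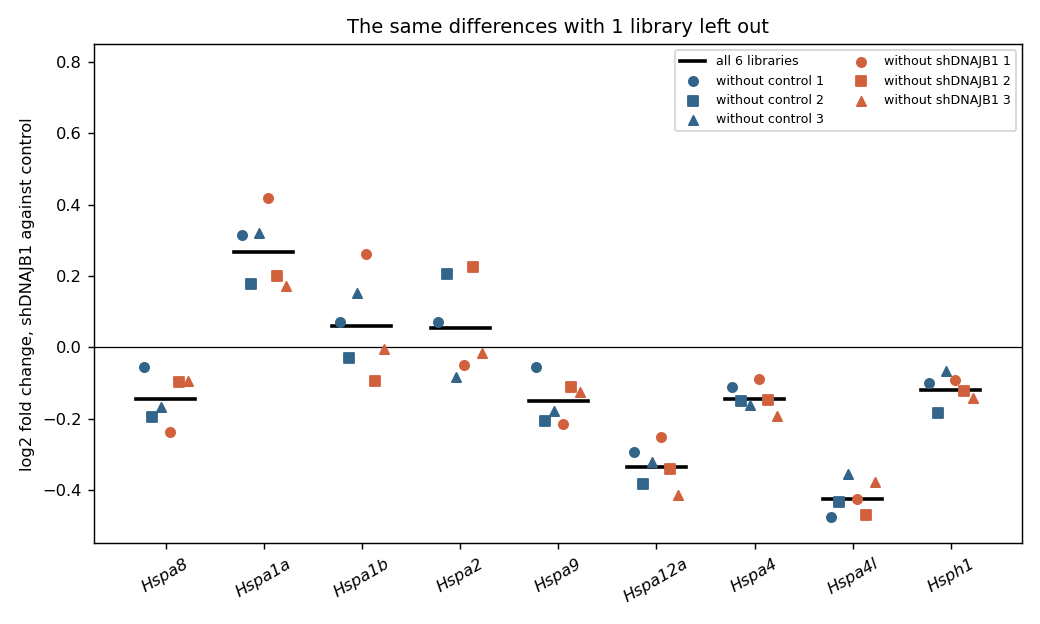
Log2 fold change of each gene with all 6 libraries (black bars) and with 1 library left out (points; colour and shape give the library). Hspa4l stays between -0.476 and -0.356, whereas points of Hspa1b and Hspa2 lie on both sides of 0.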

How the data were processed

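Libraries were prepared with a TruSeq kit that keeps strand, from Trizol-extracted nigral RNA, per the labels' protocols. The authors deposited raw counts per Ensembl gene, with a file for each library. The submitters' processing notes name build mm10 and, without roles, the tools FastQC (0.11.5), STAR (2.5.3a), DESeq (1.16.1) and Cuffnorm. How reads were assigned to genes (counter, annotation, strand setting, multi-mapping reads) is not stated there. Symbols, positions and exon lengths came from GENCODE M21 on mm10, which matched 55154 of 55335 identifiers.

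Groups came from the genotype labels. The main test was edgeR 4.0.16 (quasi-likelihood, R 4.3.3) after TMM scaling and filterByExpr at a minimum count of 10 and a minimum total of 15. Adjusted p-values are Benjamini-Hochberg values over 18870 genes, called at 0.05, and all 9 members passed the filter. The SE was the log2 fold change divided by the square root of F, and intervals are 95%. Correlations and the SD of log2 levels used log2 of CPM plus 0.5 CPM. Levels per kb divided CPM by the bases under annotated exons. The common biological variation was 24.1%, and counting errors cover counting only. The fit was tested on simulated data.

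Alternatives changed the scaling (size factors of DESeq2, upper quartile), the filter (at least 1 count, or 1 CPM in 3 libraries with a mean of 5), the tool (DESeq2 1.42.0, limma-voom from limma 3.58.1) and the libraries (each left out). A replicate block and a sum of Hspa1a with Hspa1b were also run. Leaving out control 1 with shDNAJB1 3 was added after seeing the data. The members and lists were chosen with earlier results of these data known. Every member is named with values, other lists give up to 3 genes with the smallest unadjusted p, and the 5 genes most like Hspa4l and the summed pair were taken from genes of at least 10 CPM with no clone name.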

Additional observations from a re-analysis of the deposited data

How the results depend on the processing

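The count of 0 members past the adjusted threshold was the same in all 15 alternatives, and no member was called in any of them. Over the alternatives, the adjusted p of Hspa4l ran from 0.139 (DESeq2) to 0.999 and that of Hspa12a from 0.396 to 0.999. Of 133 member values under alternatives, which include main-fit values repeated when Hspa1a and Hspa1b were summed, 126 kept their direction. The 7 others were, on leaving out 1 library, Hspa1b without control 2 (-0.029), shDNAJB1 2 (-0.095) or shDNAJB1 3 (-0.006) and Hspa2 without control 3 (-0.083), shDNAJB1 1 (-0.051) or shDNAJB1 3 (-0.016), and Hspa2 without control 1 and shDNAJB1 3 (-0.001). Ranges over the libraries left out were -0.095 to 0.261 for Hspa1b, -0.083 to 0.226 for Hspa2 and -0.17 to 0.011 for Dnajb1, which changed sign without control 1 (0.011). On leaving out 1 library, members under an unadjusted p of 0.05 numbered 1 to 2 (1 without control 1, control 3 or shDNAJB1 2, and without shDNAJB1 1 Hspa4l and Hspa1a), members with separate groups 2 to 7 (7 without shDNAJB1 1), and the median log2 difference of the members ran from -0.184 to -0.055 (-0.055 without control 1). Without control 1 and shDNAJB1 3 that median was -0.029. The cause was not tested for these. Without shDNAJB1 1, 35.0% of all genes had separate groups and 12.9% had an edgeR unadjusted p under 0.05. With all 6 libraries these shares were 14.0% and 6.37%. For the other alternatives such shares are not given, so their member counts cannot be set against all genes. Same-numbered libraries deviated from their group means with correlations of 0.05, -0.03 and 0.11 for replicates 1, 2 and 3. No such values are given for differently numbered libraries, so whether the numbers mark a pairing was not tested. A fit with the replicate block gave 0 members called, 2 under an unadjusted p of 0.05 and log2 fold changes of -0.425 for Hspa4l and -0.342 for Hspa12a. Depth limits Hspa1a and Hspa1b most, with counting errors of at least 5.03% in every library.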
